A study of Mus musculus with 14 samples.

Results

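The urothelium of Shhcre heterozygous control embryos was compared with that of Cre-negative littermates by polyA RNA-seq, in 2 Control and 7 Cre neg libraries of the 14 libraries of the series. All genes that passed a filter on low counts were compared, 13011 of the 20308 gene symbols in the table. Both groups were bladder urothelium, the epithelium that lines the bladder, of mouse embryos (C57BL/6; 129S4) taken on embryonic day 15.5. The Control embryos were Shhcre/+; Dnmt1flox/+, so they carried 1 Shhcre allele and 1 floxed Dnmt1 allele. The series also holds 5 libraries of Dnmt1cKO embryos, Shhcre/+; Dnmt1flox/flox, whose values are set beside those of some genes below. The Cre neg embryos were littermates without Cre, and their Dnmt1 alleles were not given. The Shhcre allele drives Cre in tissues that express Shh, here the epithelium. Tissue had been loosened with trypsin, and each library was made from 1 lysate that pooled several embryos of a harvest, so that the number of embryos behind the 2 Control libraries was not given. The p-values measure the spread between such pooled lysates, which may be technical.

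Shh is a secreted ligand that the bladder epithelium makes and that signals to the mesenchyme beneath it, where smooth muscle forms. In the widely used Shhcre line Cre is inserted into the Shh locus and disrupts that allele, although the labels do not name the line. Dnmt1 copies DNA methylation onto the new strand after replication, and many germline genes are silent in other tissues under such methylation. The comparison asks what a heterozygous Shhcre allele with at most 1 recombined Dnmt1 allele does by itself.

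The Control libraries held 13131921 and 5731113 counts and the Cre neg libraries 3111972 to 12958881. Urothelial identity was clear in both groups. The 8 defining markers Upk1b, Upk2, Upk3a, Krt5, Trp63, Krt18, Epcam and Cdh1 were detected in all 9 libraries, with log2 fold changes between -0.77 and -0.30 and 0 of 8 called. Control 1 lay inside the Cre neg range for 8 of 8 of these markers, Control 2 for 3 of 8 and below it for the other 5. Both groups also held transcripts of stroma, which the dissection was meant to remove. The 18 stroma and smooth muscle markers summed to 3620 CPM (counts per 1000000, scaled by the trimmed mean of M values, TMM) in Control 1 and 13500 CPM in Control 2, against 228 to 3330 CPM in the Cre neg libraries.

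The 2 Control libraries stood apart from the others by a set of genes that they shared. There were 158 genes with at most 1 count in each of the 7 Cre neg libraries and over 5 CPM, here not TMM-scaled, in Control 2, and 158 of 158 were detected in Control 1. The level in Control 1 was below that in Control 2 for all but 1 gene, with a median ratio of 0.207. The genes were picked by their level in Control 2 alone, which favours this direction. The same pick by Control 1 gave 6 genes, of which 5 (83.3%) were detected in Control 2. The ratio ran from 0.116 to 0.392 between the 5th and 95th percentile, and from 0.0563 to 1.44 in full. For 140 of the 158 genes (88.6%) the exact 95% counting interval of the ratio held this median. That is fewer than the 95% that 1 constant ratio would leave. Pairs of Cre neg libraries were examined in the same way, by genes over 5 CPM in one and with at most 1 count in each of the 5 libraries outside the pair, and between 0% and 72.0% of these genes were detected in the other (42 pairs, 17 to 83 genes each). Control 1, the deepest library, also detected 48.4% to 84.2% of the genes particular to 1 Cre neg library. In the 5 Dnmt1cKO libraries, 7.59% to 25.3% of the 158 genes were detected. The source of this shared set, and whether the 2 Control libraries came from independent lysates, was not tested. Of the 158 genes 113 were tested and 1 was called.

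**Figure D1:**
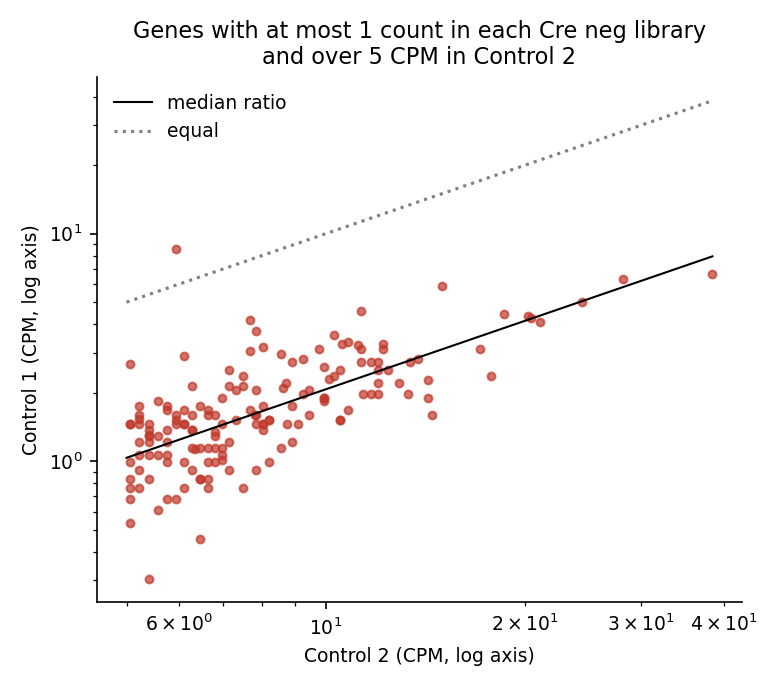
Level in Control 1 (y axis) against Control 2 (x axis), both in CPM on log axes, for the 158 genes with at most 1 count in each Cre neg library and over 5 CPM in Control 2. The solid line is the median ratio of 0.207 and the dotted line marks equal levels, and 1 gene lies above the dotted line.

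Few genes were called different between Control and Cre neg urothelium. By the quasi-likelihood test of edgeR with a Benjamini-Hochberg adjusted p under 0.05, 7 genes were higher in Control (0.0538% of 13011) and 0 were lower (0%). Before adjustment, 454 genes were higher (3.49%) and 23 lower (0.177%) with p under 0.05, while DESeq2 called 13 higher and 8 lower and limma-voom 40 higher and 0 lower. Both Control libraries stood above all 7 Cre neg libraries for 786 genes (6.04%) and below them for 247 (1.90%). The higher genes were mostly higher in Control 2 than in Control 1. This held for 423 of the 454 genes, with a median Control 2 to Control 1 ratio of 3.76, and the stroma marker sum had a ratio of 3.73. Over all tested genes the median ratio was 0.983. Of the 454 genes, 333 averaged under 1 CPM in Cre neg libraries and 104 had 0 counts there. The exact two-sided permutation test of 2 libraries against 7 cannot give a p below 0.0556, so no such p is given for a single gene or list.

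**Figure D2:**
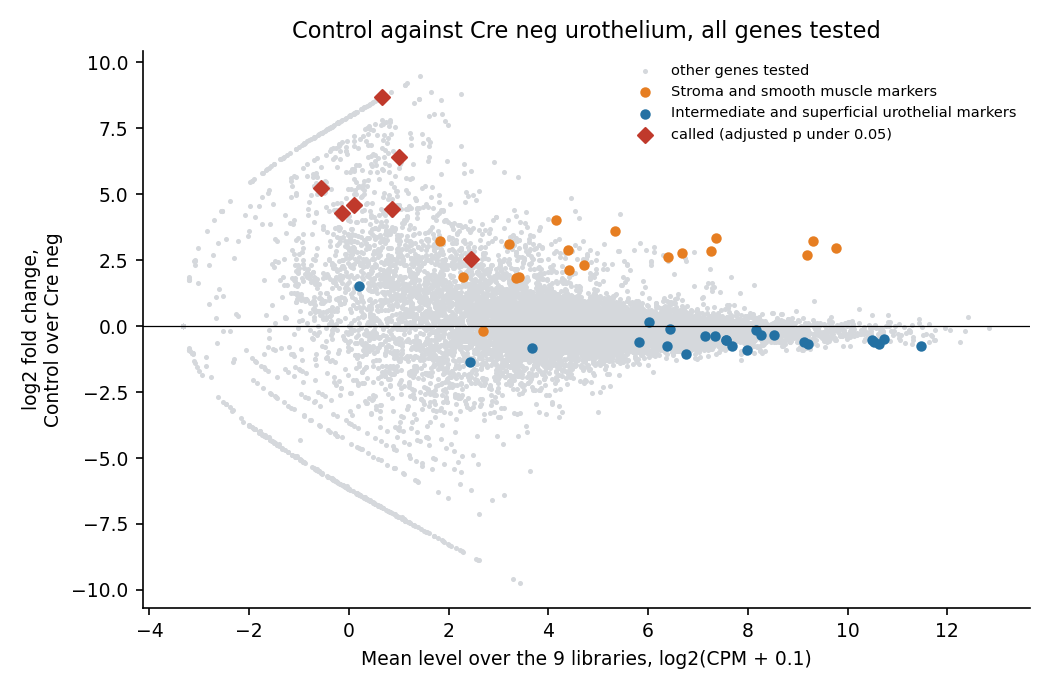
Log2 fold change of Control over Cre neg (y axis) against the mean level over the 9 libraries as log2(CPM + 0.1) (x axis) for the 13011 genes tested. The 7 called genes (diamonds) lie above 0 at low or moderate levels, 17 of the 18 stroma and smooth muscle markers lie above 0, and 22 of the 24 intermediate and superficial urothelial markers lie below 0.

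The 7 genes that rose were Rhox5, Trap1a, Rhox6, Taf7l, Tuba3b, Hist4h4 and Hp. All but Hp belong to a list of germline genes silenced by DNA methylation that was drawn up with results of these data known. Rhox5, an X-linked reproductive homeobox gene, had 2.83 CPM in Control 1 and 13.8 CPM in Control 2, against a lowest, median and highest value of 0, 0.0904 and 0.173 CPM in Cre neg libraries (log2 fold change 6.41 ± 0.64 SE, edgeR adjusted p = 4.76e-06). Rhox6, its neighbour in the Rhox cluster, had 1.45 and 4.86 CPM in Control libraries, against 0, 0.161 and 0.255 CPM in Cre neg libraries (4.27 ± 0.56, adjusted p = 0.000255). Trap1a, a tumour rejection antigen gene also on the X chromosome, had 2.07 and 11.2 CPM in Control, against 0.144, 0.341 and 0.519 CPM in Cre neg libraries (4.43 ± 0.47, adjusted p = 8.96e-06). In each of these 3 genes the groups did not overlap and Control 2 was the highest of the 9 libraries.

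Taf7l, a germ cell paralog of a subunit of the general transcription factor TFIID, had 1.87 and 5.99 CPM in Control, against 0, 0.161 and 0.271 CPM in Cre neg libraries (log2 fold change 4.61 ± 0.72, edgeR adjusted p = 0.0027). Tuba3b, an alpha-tubulin gene of the testis, had 0.691 and 4.21 CPM in Control and 3 counts over all 7 Cre neg libraries, a ratio of 36.4 with a 95% counting interval of 11.5 to 184.7 (adjusted p = 0.0148). Reads of Tuba3b may be shared with its near-identical copy Tuba3a. Hist4h4, a histone H4 gene, was already present in Cre neg libraries at 1.63, 1.91 and 4.91 CPM and stood at 7.19 and 23.3 CPM in Control (2.56 ± 0.39, adjusted p = 0.0025). Hp encodes haptoglobin, a plasma protein that binds free haemoglobin. It had 2.28 and 11.2 CPM in Control and 0 counts in 7 of 7 Cre neg libraries, at least 103-fold higher against a floor of 3 counts over those libraries (adjusted p = 0.0148). Of the 7 genes, 7 had both Control libraries above all Cre neg libraries, and Control 2 exceeded Control 1 by ratios of 3.21 to 6.09.

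Levels of the same genes in Dnmt1cKO libraries were far above those in Control libraries. That contrast uses the same Cre neg libraries, so only the levels are set side by side. Rhox5 ran from 197 to 451 CPM in the 5 Dnmt1cKO libraries, and the Control mean of 8.30 CPM was 2.70% of the Dnmt1cKO mean. The corresponding share was 0.656% for Trap1a, 0.442% for Rhox6 and 0.413% for Hist4h4, and it was 2.28% for Taf7l and 1.90% for Tuba3b. For Hp it was 12.3%, with 13.7 to 106 CPM in Dnmt1cKO libraries. The 29 tested germline genes summed to 59.4 CPM in Control 1 and 184 CPM in Control 2, to 5970 to 9350 CPM in Dnmt1cKO, and to 7.77 to 94.9 CPM in Cre neg libraries. Control 1 thus lay inside the Cre neg range for this sum. Of the 29 genes 6 rose, while 0.0538% of all tested genes did. The list was drawn up with these results in view, so the 2 shares cannot be compared as an enrichment. Of the same 29, 9 had 0 counts in both Control libraries and 7 had 0 counts in every Cre neg library. The median log2 fold change of the 29 was 0.98, beside -0.04 over all tested genes. It was 0.27 when a gene at 0 in Cre neg libraries but above the floor in Control was set to its bound. The 6 genes with 0 counts in both groups kept their fitted value. Genes silent in both groups could pass the filter only through the Dnmt1cKO libraries, so the 29 are not the whole list of 30.

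**Figure D3:**
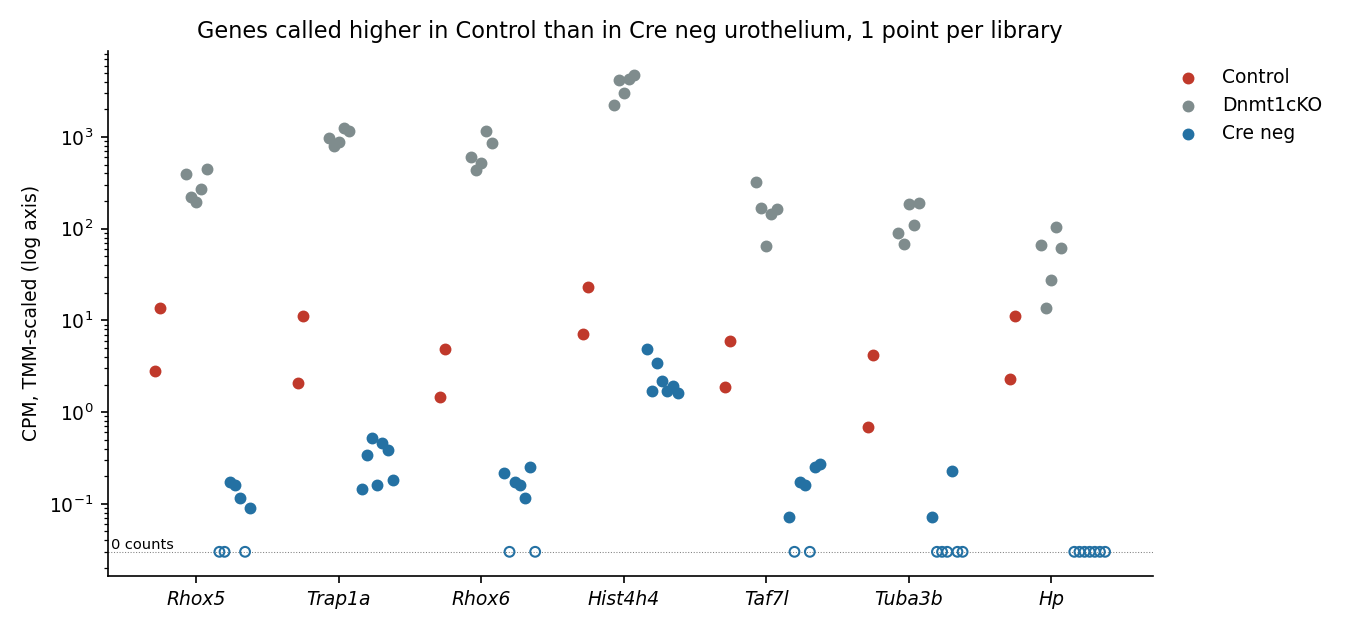
CPM (log axis, TMM-scaled) of the 7 called genes in each library, with Control (n = 2), Dnmt1cKO (n = 5) and Cre neg (n = 7) from left to right within a gene and open circles for 0 counts. Both Control points of each gene lie above every Cre neg point, and the Dnmt1cKO points lie higher than the Control points.

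The calls depended on Control 2 and on fitting the Dnmt1cKO libraries together with the others. Without Control 2, only Rhox5 stayed called (log2 fold change 4.89, adjusted p = 0.00366, over alternatives 2.89e-10 to 0.296). Without Control 1, 10 genes were called, among them all 7. In a fit of the 9 Control and Cre neg libraries alone, 6 genes were called and 0 of the 7 were among them. The adjusted p was then 0.296 for Rhox5 and Hp, 0.713 for Taf7l, 0.768 for Trap1a, 0.818 for Rhox6 and 1 for Hist4h4, and Tuba3b did not pass the filter there. The log2 fold changes in that fit were 6.53 for Rhox5, 4.40 for Trap1a, 4.46 for Rhox6, 4.75 for Taf7l and 2.65 for Hist4h4, close to those with the 14 libraries. With the stroma marker mean as a covariate, 4 of the 7 stayed called, which were Rhox5, Rhox6, Taf7l and Trap1a. The same 4 were called when the 2 Control libraries were summed into 1, a setting added after the data had been seen. That fit has 1 Control sample, which is assumed to vary like the other groups, so it holds no check by Control replicates.

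Of these genes Rhox5 spans chrX:37804842-37808876, Rhox6 chrX:37826910-37829857, both on the plus strand of GRCm38, and Hist4h4 chr6:136801553-136804415 on the minus strand. Trap1a spans chrX:139333683-139338169 on the plus strand, Taf7l chrX:134460118-134476490 on the minus strand, Tuba3b chr6:145615757-145621479 on the plus strand and Hp chr8:109575128-109579172 on the minus strand. The promoters of Trap1a and Taf7l are shown because CG is the dinucleotide that Dnmt1 methylates and both genes were among those that rose. The sequences are from RefSeq on GRCm38.p6, run 5′ to 3′ from 250 bases before to 50 after the start, and carry each CG in capitals. RefSeq promoters were matched by symbol for 4 of the 7 genes, and the 2 shown are those whose RefSeq start is also the start of the GENCODE gene. The other 2 windows are not printed. That of Rhox5, chrX:37754358-37754657, lies well upstream of the gene start at 37804842 and held 5 CG, reached by 62.0% of promoters. That of Tuba3b, chr6:145615713-145616012, begins just before the annotated gene start, runs into the gene and held 16 CG, reached by 33.0%. The Trap1a window is chrX:139333433-139333732, plus strand, and the Taf7l window chrX:134476441-134476740, minus strand.
Trap1a: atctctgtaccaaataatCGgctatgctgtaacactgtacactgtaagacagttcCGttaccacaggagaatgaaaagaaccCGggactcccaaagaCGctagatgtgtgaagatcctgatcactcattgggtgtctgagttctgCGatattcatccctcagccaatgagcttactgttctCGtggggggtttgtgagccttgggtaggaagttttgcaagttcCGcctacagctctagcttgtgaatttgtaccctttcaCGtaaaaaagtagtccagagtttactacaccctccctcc
Taf7l: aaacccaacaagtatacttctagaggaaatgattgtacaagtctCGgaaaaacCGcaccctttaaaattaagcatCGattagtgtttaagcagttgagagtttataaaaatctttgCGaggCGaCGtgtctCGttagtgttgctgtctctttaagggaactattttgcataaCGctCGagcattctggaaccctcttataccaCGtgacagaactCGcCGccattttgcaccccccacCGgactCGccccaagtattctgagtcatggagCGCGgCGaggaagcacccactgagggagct
The Trap1a window held 8 CG, and 48.6% of the 32851 RefSeq promoters of the same length held as many or more. The Taf7l window held 17 CG, reached by 31.4% of promoters. The median promoter held 7 CG, and 94.6% held at least 1. CG reads the same on both strands, and methylation itself was not measured.

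Shh stood lower in Control libraries without passing the test. It had 156 CPM in Control 1 and 61.8 CPM in Control 2, against 168, 264 and 373 CPM as the lowest, median and highest of the Cre neg libraries. The groups did not overlap, and Control averaged 109 ± 66.4 CPM (SD, n = 2) and Cre neg 267 ± 72.4 CPM (SD, n = 7). The log2 fold change was -1.29 ± 0.70 (edgeR adjusted p = 1, over alternatives 0.257 to 1), and it lay between -2.11 and -0.78 in the alternatives. Shh lies on chr5:28456815-28467256 on the minus strand, where exons of the antisense genes 9530036O11Rik and Gm26894 overlap it. Whether the counting used strand was not given. In bulk tissue, fewer cells of a type and less RNA per cell cannot be told apart, and the epithelial sums given below were also lowest in Control 2.

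Dnmt1 levels overlapped between the groups. It had 97.4 and 106 CPM in Control, both within the Cre neg range of 41.3 to 192 CPM with a median of 138 CPM. Control averaged 102 ± 6.20 CPM (SD, n = 2) and Cre neg 119 ± 58.4 CPM (SD, n = 7), a log2 fold change of -0.23 ± 0.69 (edgeR adjusted p = 1). With the stroma marker mean as a covariate it was -1.77, and in the fit blocked by replicate number it was 0.52, with an adjusted p of 1 in both. The counts cover whole genes, and a recombined allele can still give reads from its remaining exons. Dnmt1 lies on chr9:20907209-20959888 on the minus strand.

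Genes near Shh were examined because the altered allele lies among them. Of 11 measured genes within 1 Mb, 7 were tested and 0 were called. Dpp6, a potassium channel auxiliary subunit gene of neurons, had 4.63 and 21.9 CPM in Control, against 0, 0 and 0.344 CPM in Cre neg libraries (log2 fold change 6.97 ± 2.40, edgeR adjusted p = 0.484). The log2 fold changes of the other 6 ran from -0.37 to 1.52, with no unadjusted p below 0.519.

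**Figure D4:**
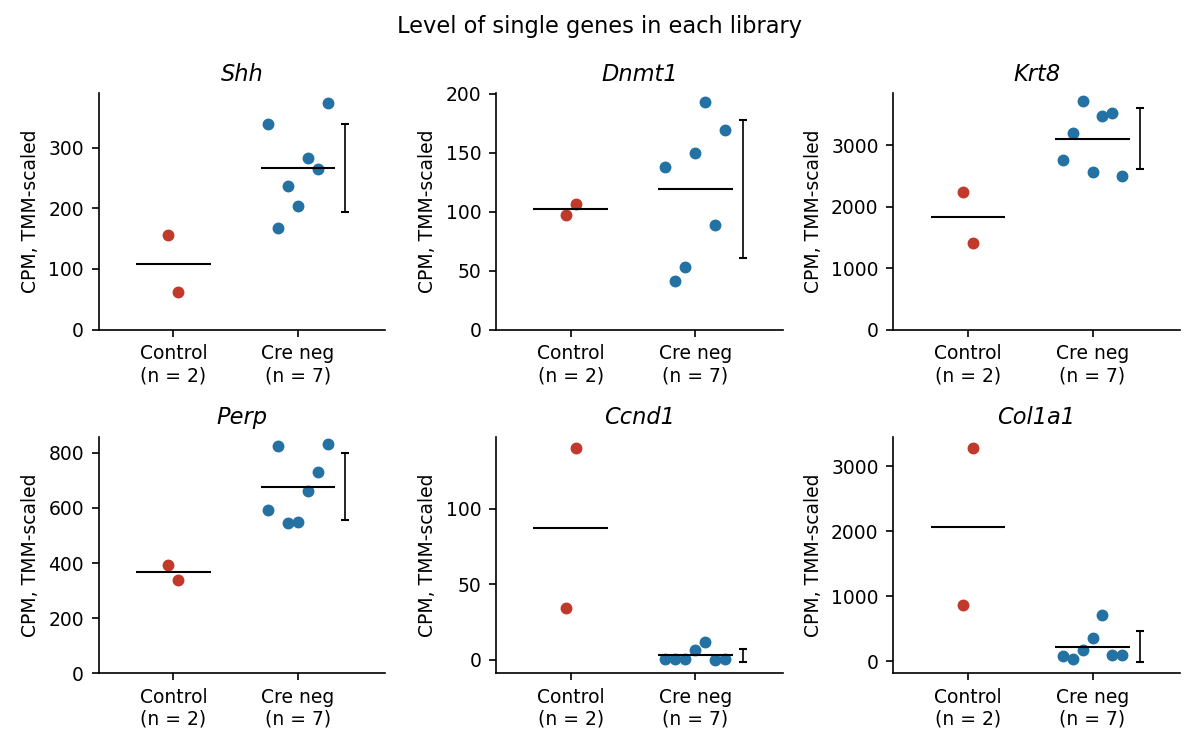
CPM (TMM-scaled) of Shh, Dnmt1, Krt8, Perp, Ccnd1 and Col1a1 in each Control (n = 2, left) and Cre neg (n = 7, right) library, with the mean as a line and the SD of the Cre neg libraries as a bar. Both Control points lie below all Cre neg points for Shh, Krt8 and Perp and above them for Ccnd1 and Col1a1, while those of Dnmt1 lie within them.

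The response side of the Hedgehog pathway showed no call. Of 17 tested pathway genes 0 were called, and the median log2 fold change was 0.16. With an unadjusted p under 0.05, 1 was higher (3.49% of all genes) and 0 were lower (0.177%). Gas1, a surface co-receptor for Hedgehog ligands, had 13.1 and 51.6 CPM in Control, against 0, 1.49 and 7.09 CPM in Cre neg libraries (3.43 ± 1.65, edgeR adjusted p = 1). Boc, another co-receptor, had 7.26 and 8.42 CPM in Control, against 0, 0.181 and 3.18 CPM in Cre neg libraries (3.14 ± 1.96, adjusted p = 1). Gli3, a transcription factor of the pathway that acts mainly as a repressor, had 12.8 and 28.5 CPM in Control, against 0.127, 3.18 and 16.1 CPM in Cre neg libraries (2.24 ± 1.84, adjusted p = 1). These receiving-side genes are typical of mesenchyme. Of the 9 libraries, Control 2 held the highest level of Gas1, Boc and Gli3 and the most stroma transcripts. Boc was nearly level between the 2 Control libraries, and the cause of these levels was not tested. With the stroma marker mean as a covariate the log2 fold change was 0.30 for Gas1, 2.34 for Boc and 2.39 for Gli3 (edgeR adjusted p = 1 each, over alternatives 0.165 to 1 for Gas1, 0.287 to 1 for Boc and 0.48 to 1 for Gli3).

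Transcripts of stroma and smooth muscle were more abundant in Control libraries, in particular Control 2, although 0 of the 18 tested markers passed the adjusted test. Of the 18, 13 were higher at an unadjusted p under 0.05 (3.49% of all genes) and 9 had both Control libraries above all Cre neg libraries (6.04% of all genes). The median log2 fold change was 2.80, beside -0.04 over all genes. The list averaged 5.69 and 7.38 log2 CPM in Control, against 1.92 to 5.21 with a median of 2.79 in Cre neg libraries. Col1a1, a chain of the fibrillar collagen of connective tissue, had 859 and 3286 CPM in Control, against 37.9, 96.0 and 709 CPM in Cre neg libraries (3.23 ± 0.79, edgeR adjusted p = 0.245). Myh11, which encodes the heavy chain of smooth muscle myosin, had 273 and 834 CPM in Control, against 8.87, 23.9 and 167 CPM in Cre neg libraries (3.34 ± 0.76, adjusted p = 0.17). Both genes were higher in each Control library than in any Cre neg library. Of 20 alternatives 3 called Col1a1 and 3 called Myh11. The lowest adjusted p, by edgeR without a filter, was 0.000374 for Col1a1 and 0.000369 for Myh11.

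Other contractile and matrix genes followed the same order of libraries. Tpm2, a muscle tropomyosin, had 214 and 714 CPM in Control, against 28.1, 59.2 and 98.8 CPM in Cre neg libraries (log2 fold change 2.84 ± 0.59, edgeR adjusted p = 0.0843). Sparc, a collagen-binding matrix protein, had 212 and 718 CPM in Control, against 19.5, 59.4 and 109 CPM in Cre neg libraries (2.82 ± 0.58, adjusted p = 0.0843). Fstl1, a secreted glycoprotein of mesenchyme, had 208 and 560 CPM in Control, against 47.8, 74.2 and 134 CPM in Cre neg libraries (2.2 ± 0.45, adjusted p = 0.0843). Mylk, the kinase that activates smooth muscle myosin, had 86.2 and 282 CPM in Control, against 7.09, 18.5 and 36.0 CPM in Cre neg libraries (3.17 ± 0.71, adjusted p = 0.17). In the fit of the 9 libraries alone these 4 genes and Mest were called, with adjusted p of 0.0199 for Tpm2, 0.0212 for Mylk, 0.0293 for Sparc, 0.0305 for Mest and 0.0422 for Fstl1. The range over alternatives was 0.000244 to 1 for Tpm2, 0.00999 to 1 for Mylk, 0.00049 to 1 for Sparc, 0.00309 to 1 for Mest and 0.00537 to 1 for Fstl1.

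Of 22 extracellular matrix genes, 22 had a positive log2 fold change with a median of 2.54. At an unadjusted p under 0.05, 14 were higher (3.49% of all genes), and 0 were called. Eln, elastin, had 56.7 and 271 CPM in Control, against 0.452, 2.05 and 36.4 CPM in Cre neg libraries (4.25 ± 1.10, edgeR adjusted p = 0.257). Tagln, an actin-binding protein of smooth muscle, had 63.8 and 220 CPM in Control, against 2.59, 5.96 and 28.4 CPM in Cre neg libraries (3.61 ± 0.89, adjusted p = 0.251). Among the alternatives only edgeR without a filter called Tagln (adjusted p = 0.00447). With the stroma marker mean as a covariate, a mean that does not include Eln, the log2 fold change of Eln was 0.57 (edgeR adjusted p = 1, over alternatives 0.00652 to 1).

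**Figure D5:**
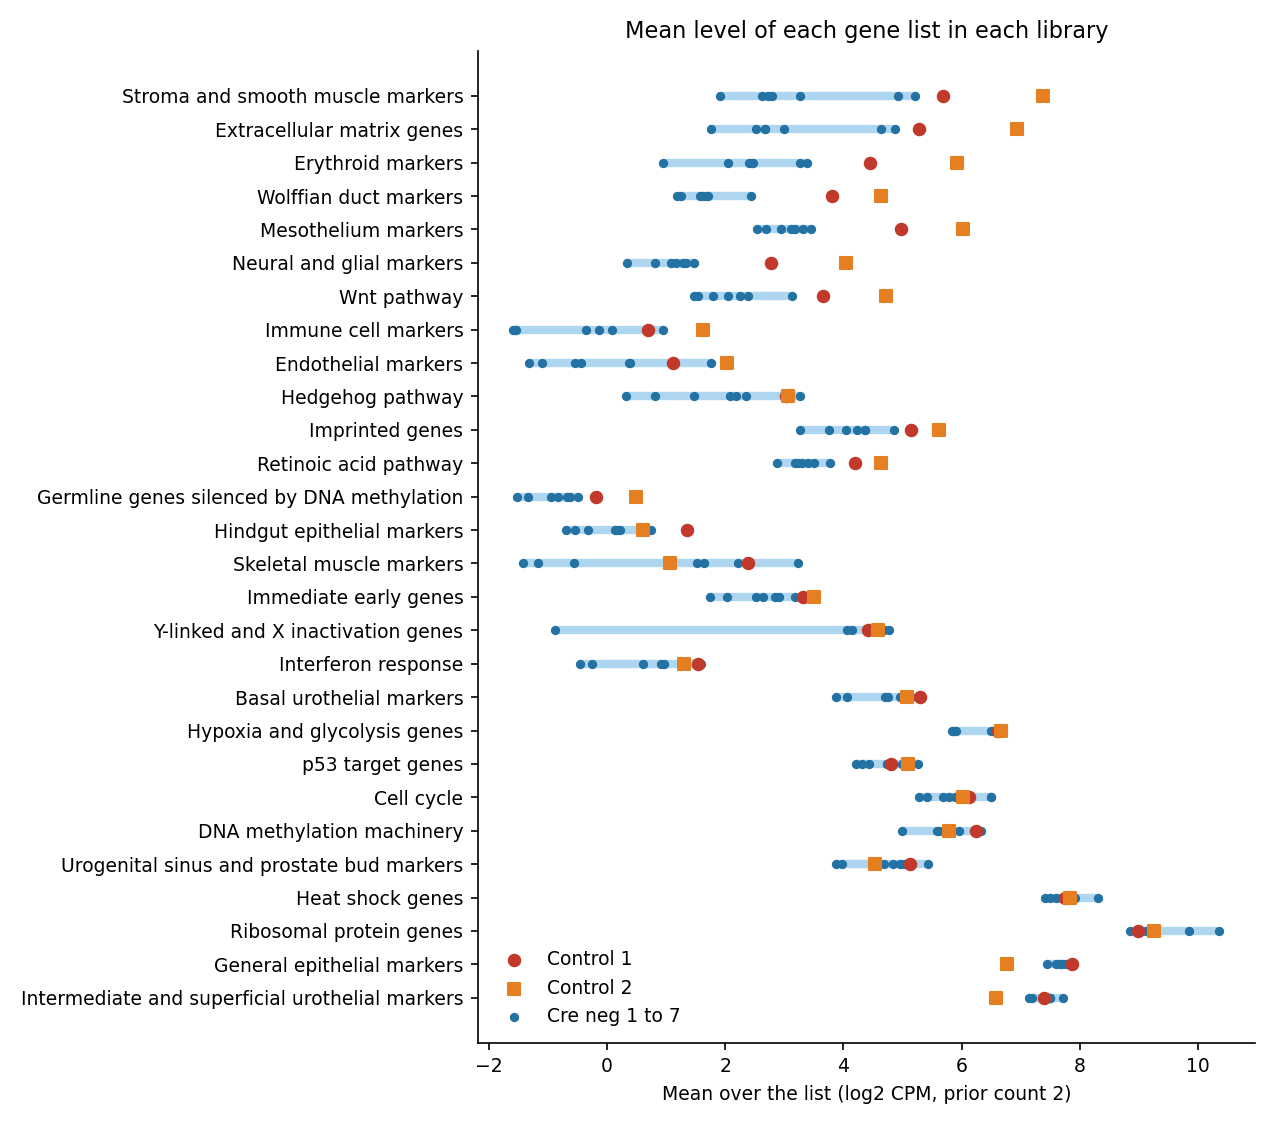
Mean of each gene list in each library (log2 CPM, x axis), with Control 1 as a circle, Control 2 as a square and the 7 Cre neg libraries as small points on a bar that spans their range. Both Control libraries lie above the Cre neg range for the lists of stroma, matrix, mesothelium, Wolffian duct, neural and erythroid genes. They also lie above it for the germline, imprinted, Wnt pathway, retinoic acid pathway and immediate early lists. Control 2 lies below the range for the general epithelial and the intermediate and superficial urothelial markers.

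Markers of the Wolffian duct, the epithelial duct that opens near the forming bladder and gives rise to the male reproductive ducts, stood at or near 0 in Cre neg libraries for the 4 named genes and were present in both Control libraries. Calb1, which encodes the calcium-binding protein calbindin, had 6.01 and 35.6 CPM in Control and 1 count over all Cre neg libraries, a ratio of 931 with a 95% counting interval of 165.9 to 36890 (edgeR adjusted p = 0.257). Lhx1, a LIM homeobox gene of the early kidney and ducts, had 1.45 and 8.74 CPM in Control and 0 counts in every Cre neg library, at least 75.8-fold higher (adjusted p = 0.257). Pax8, a paired box factor of the same lineage, had 3.32 and 10.4 CPM in Control, against 0, 0 and 0.322 CPM in Cre neg libraries (6.67 ± 2.24, adjusted p = 0.468). Cdh16, kidney-specific cadherin, had 12.1 and 60.5 CPM in Control, against 0, 0 and 2.90 CPM in Cre neg libraries (5.84 ± 2.20, adjusted p = 0.721). In the 5 Dnmt1cKO libraries Lhx1, Pax8 and Cdh16 had 0 counts and Calb1 reached 3.85 CPM. Of 11 tested duct markers 7 had a positive and 4 a negative log2 fold change, with a median of 5.80. At an unadjusted p under 0.05, 6 were higher (3.49% of all genes), and 0 were called. Among the alternatives, limma-voom alone called Calb1 and Cdh16 (adjusted p = 0.0136 each). Both Control libraries lay above all Cre neg libraries for 6 markers (6.04% of all genes) and below them for 1 (1.90%). The list averaged 3.81 and 4.63 log2 CPM in Control, against 1.18 to 2.43 in Cre neg libraries. Which cells held these transcripts was not tested. Its summed level did not separate the groups, at 358 and 328 CPM in Control and 231 to 396 CPM in Cre neg libraries.

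Markers of mesothelium, the lining of the body cavity, did not all move one way. Of 9 tested markers 6 had a positive and 3 a negative log2 fold change, and they summed to 1760 and 1490 CPM in Control, inside the Cre neg range of 1420 to 2430 CPM. Their mean was 4.97 and 6.03 log2 CPM in Control, against 2.54 to 3.45 in Cre neg libraries. Wt1, a zinc finger factor of mesothelium and gonad, had 33.3 and 143 CPM in Control, against 0.382, 3.14 and 10.9 CPM in Cre neg libraries (log2 fold change 4.37 ± 1.19, edgeR adjusted p = 0.257). Lrrn4, a mesothelial membrane protein gene, had 2.0 and 8.09 CPM in Control and 0 counts in every Cre neg library, at least 79.9-fold higher (adjusted p = 0.257). Of the 9 markers 4 were higher at an unadjusted p under 0.05 (3.49% of all genes) and 0 were called, with a median of 2.80. In both genes Control 2 held the highest value of the 9 libraries.

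Among neural, blood and vessel markers, the means of the neural and erythroid lists separated the groups and those of the immune and endothelial lists did not. Neural and glial markers averaged 2.77 and 4.04 log2 CPM in Control, against 0.34 to 1.48 in Cre neg libraries, and erythroid markers 4.45 and 5.92 in Control, against 0.95 to 3.38 in Cre neg libraries. For immune markers (0.69 and 1.62 in Control, against -1.58 to 0.95 in Cre neg libraries) and endothelial markers (1.12 and 2.04 in Control, against -1.32 to 1.76 in Cre neg libraries) Control 1 lay inside the Cre neg range. Summed levels of neural markers (470 and 598 CPM in Control, against 302 to 828 CPM in Cre neg libraries) and endothelial markers (26.4 and 68.3 CPM in Control, against 11.9 to 72.8 CPM in Cre neg libraries) did not separate the groups. Gap43, a growth cone protein gene, had 14.4 and 64.1 CPM in Control, against 0.637, 3.07 and 11.0 CPM in Cre neg libraries (log2 fold change 3.19 ± 1.40, edgeR adjusted p = 1). At an unadjusted p under 0.05, 3 of 11 tested neural and glial markers were higher (3.49% of all genes, median 2.58). Hbb-bs, an adult beta-globin gene with a near-identical copy in Hbb-bt, had 168 and 454 CPM in Control, against 39.6, 112 and 147 CPM in Cre neg libraries (1.64 ± 0.68, adjusted p = 0.941). Slc4a1, the red cell anion exchanger, had 3.18 and 13.9 CPM in Control, against 0, 0 and 0.645 CPM in Cre neg libraries (6.22 ± 2.35, adjusted p = 0.721). Of 6 tested erythroid markers 4 were higher at an unadjusted p under 0.05 (3.49% of all genes, median 1.88). Csf1r, a macrophage growth factor receptor, had 4.42 and 15.2 CPM in Control, against 0, 0 and 0.967 CPM in Cre neg libraries (5.63 ± 2.16, adjusted p = 0.729). It belongs to 8 tested immune markers, of which 1 was higher at an unadjusted p under 0.05 (3.49% of all genes, median 1.98). Pecam1, an endothelial adhesion molecule, had 5.04 and 16.5 CPM in Control, against 0, 0.341 and 3.06 CPM in Cre neg libraries (3.25 ± 1.95, adjusted p = 1), and 0 of 11 endothelial markers were higher at an unadjusted p under 0.05 (median 1.54). None of these lists held a called gene by edgeR.

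Most markers of epithelium lay slightly lower in Control. The median log2 fold change was -0.04 over all tested genes. It was -0.14 over the 7133 genes that averaged 20 CPM or more in Cre neg libraries. Of 24 markers of intermediate and superficial urothelium, the layers that build the apical barrier, 22 had a negative log2 fold change with a median of -0.56. Of the 24, 1 was lower at an unadjusted p under 0.05 (0.177% of all genes) and 0 were called. They summed to 11400 CPM in Control 1 and 6760 CPM in Control 2, against 10400 to 16300 CPM in Cre neg libraries, so that only Control 2 fell outside. Krt8, a keratin of simple epithelia, had 2243 and 1411 CPM in Control, against 2502, 3198 and 3730 CPM in Cre neg libraries (-0.77 ± 0.36, edgeR adjusted p = 1). Krt7 had 1224 and 921 CPM in Control, against 1243, 1701 and 2071 CPM in Cre neg libraries (-0.68 ± 0.35, adjusted p = 1). Upk1a, a uroplakin of the apical plaques, had 494 and 308 CPM in Control, against 444, 666 and 757 CPM in Cre neg libraries (-0.69 ± 0.35, adjusted p = 1). Ocln, a tight junction protein gene, had 81.3 and 36.7 CPM in Control, against 69.9, 131 and 166 CPM in Cre neg libraries (-1.05 ± 0.54, adjusted p = 1). For Upk1a and Ocln Control 1 lay within the Cre neg range.

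General epithelial markers were negative in 14 of 15 genes with a median of -0.40 and 0 called, and they summed to 7020 and 3450 CPM in Control, against 6010 to 9240 CPM in Cre neg libraries. Their mean difference was -0.37 log2 CPM with both Control libraries and 0.18 without Control 2. Among 14 basal markers, genes of the layer that holds the progenitors, the median was -0.28 and 0 were called. The log2 fold change was negative for 9 and positive for 5, and 2 had both Control libraries above all Cre neg libraries (6.04% of all genes). The mean of the basal list was 5.29 and 5.08 log2 CPM in Control, against 3.87 to 5.15 in Cre neg libraries, so Control 2 lay inside that range. The basal markers summed to 2900 and 1970 CPM in Control, against 2730 to 5910 CPM in Cre neg libraries. By this sum Control 2 lay below all Cre neg libraries. Krt15, a basal keratin, had 1862 and 1316 CPM in Control, against 1599, 2052 and 4440 CPM in Cre neg libraries (-0.64 ± 0.39, adjusted p = 1). Cd44, a hyaluronan receptor that basal cells share with stroma and blood cells, ran the other way at 3.25 and 9.55 CPM in Control, against 0, 0.0904 and 0.341 CPM in Cre neg libraries (5.92 ± 1.99, edgeR adjusted p = 0.443).

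Further genes with both Control libraries below all Cre neg libraries were named by the size of their p, and 0 of them were called. Perp, a desmosomal p53 target of stratified epithelia, had the smallest p of them at 394 and 339 CPM in Control, against 546, 660 and 833 CPM in Cre neg libraries (log2 fold change -0.88 ± 0.32, edgeR adjusted p = 0.605). Wnt4, a Wnt ligand, had 190 and 122 CPM in Control, against 234, 297 and 502 CPM in Cre neg libraries (-1.01 ± 0.48, adjusted p = 1). Pon2, a paraoxonase that overlaps an antisense gene, had 77.5 and 44.2 CPM in Control, against 98.7, 138 and 192 CPM in Cre neg libraries (-1.25 ± 0.50, adjusted p = 0.852). Cab39, a cofactor of the kinase LKB1, had a log2 fold change of -0.84 ± 0.34 (adjusted p = 0.848). Fut2, a fucosyltransferase of epithelial surfaces, had -1.12 ± 0.50, and Car2, a cytosolic carbonic anhydrase, had -0.95 ± 0.42. The values were -1.07 ± 0.48 for the DNA repair endonuclease gene Apex1, -1.0 ± 0.46 for Bcl2l14 of the Bcl-2 family, -1.16 ± 0.55 for the angiogenic factor gene Aggf1, -0.74 ± 0.35 for the ubiquitin ligase gene Rnf128 and -0.79 ± 0.39 for the chromatin remodelling subunit gene Smarcd2. The adjusted p was 1 for each gene from Fut2 to Smarcd2.

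Ccnd1, cyclin D1, drives entry into the cell cycle. It had 34.3 and 141 CPM in Control, against 0, 0.682 and 12.02 CPM in Cre neg libraries (log2 fold change 4.85 ± 1.11, edgeR adjusted p = 0.17). The groups did not overlap, and Dnmt1cKO libraries ran from 28.8 to 96.1 CPM. The adjusted p lay between 0.00712 and 1 over alternatives, and 4 of them called the gene: DESeq2, limma-voom, no filter and the fit without Cre neg 5. Of 28 cell cycle genes this was the 1 gene with an unadjusted p under 0.05, and the list median was -0.10. Over all genes, 3.49% were higher at that p.

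Among 21 tested imprinted genes 5 were higher at an unadjusted p under 0.05 (3.49% of all genes), 0 were called and the median log2 fold change was 0.50. The log2 fold change was positive for 16 of them and negative for 5. Mest, a paternally expressed gene abundant in mesenchyme, had 83.2 and 354 CPM in Control, against 14.5, 16.05 and 46.5 CPM in Cre neg libraries (3.01 ± 0.72, edgeR adjusted p = 0.226). Dlk1, a paternally expressed Notch ligand-like gene, had 22.7 and 91.1 CPM in Control, against 0.510, 2.67 and 31.7 CPM in Cre neg libraries (2.57 ± 1.02, adjusted p = 0.8). Peg10, a retrotransposon-derived gene, had 39.5 and 89.2 CPM in Control, against 0.691, 19.2 and 32.2 CPM in Cre neg libraries (1.80 ± 0.61, adjusted p = 0.443). Plagl1, a zinc finger gene, had 150 and 337 CPM in Control, against 20.4, 94.0 and 146 CPM in Cre neg libraries (1.51 ± 0.61, adjusted p = 0.848). Among these named genes, which were picked by lowest p, the groups overlapped only for Dlk1. Over the 21 genes, both Control libraries lay above all Cre neg libraries for 4 (6.04% of all genes). In Dnmt1cKO libraries Peg10 ran from 266 to 814 CPM, above both groups. With the stroma marker mean as a covariate the log2 fold change of Mest was 0.61.

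Of 17 tested genes of the DNA methylation machinery 0 were called and 0 had an unadjusted p under 0.05 in either direction, with a median of -0.04. Trim28, a corepressor that maintains silencing at imprinted genes and retroelements, had 284 and 254 CPM in Control, against 179, 243 and 322 CPM in Cre neg libraries (0.18 ± 0.34, edgeR adjusted p = 1). Target genes of p53, the stress-activated tumour suppressor, showed no call. With an unadjusted p under 0.05, 0 of 20 tested targets were higher (3.49% of all genes) and 1 was lower (0.177%), and the median was -0.27. Pmaip1, the gene of the cell death inducer Noxa, had 16.03 and 21.4 CPM in Control, 176 to 468 CPM in Dnmt1cKO and 2.34, 34.1 and 62.3 CPM in Cre neg libraries (-0.84 ± 0.71, adjusted p = 1). Ccng1, cyclin G1, had 113 and 109 CPM in Control, 213 to 580 CPM in Dnmt1cKO and 126, 136 and 156 CPM in Cre neg libraries (-0.33 ± 0.38, adjusted p = 1). Both Control libraries lay below all Cre neg libraries for Ccng1 and within their range for Pmaip1.

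No gene of the Wnt or retinoic acid pathway was called. The 26 tested Wnt pathway genes summed to 3480 and 3340 CPM in Control, against 3390 to 5320 CPM in Cre neg libraries, so Control 1 lay near the lower end of the Cre neg range and Control 2 below it. The mean log2 CPM, which gives low genes equal weight, was 3.66 and 4.72 in Control, against 1.48 to 3.14 in Cre neg libraries. Of the 26 genes 8 had both Control libraries above all Cre neg libraries (6.04% of all genes). With an unadjusted p under 0.05, 3 were higher (3.49% of all genes) and 1 (Wnt4) was lower (0.177%). The median was 1.98. Notum, a secreted Wnt-inactivating enzyme gene with annotated antisense genes, had 2.56 and 12.8 CPM in Control, against 0, 0.0722 and 0.173 CPM in Cre neg libraries (6.63 ± 2.06, edgeR adjusted p = 0.335). Wif1, a secreted Wnt inhibitor, had 1.45 and 7.29 CPM in Control and 1 count over the Cre neg libraries, a ratio of 200.1 with a 95% counting interval of 34.7 to 8024 (adjusted p = 0.381). Wnt2b, a Wnt ligand, had 1.38 and 9.71 CPM in Control and 2 counts over the Cre neg libraries, a ratio of 121 with an interval of 32.5 to 1019 (adjusted p = 0.283).

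Of 15 retinoic acid pathway genes 1 was higher at an unadjusted p under 0.05 (3.49% of all genes, median 0.03). Aldh1a2, a retinoic acid-synthesising enzyme of mesenchyme and mesothelium, had 87.3 and 330 CPM in Control, against 3.75, 17.2 and 76.4 CPM in Cre neg libraries (2.80 ± 0.90, edgeR adjusted p = 0.381). Aldh1a3, an epithelial enzyme of the same step, had 14.2 and 74.5 CPM in Control, against 0, 0.0722 and 14.8 CPM in Cre neg libraries (4.31 ± 2.12, adjusted p = 1). Among the alternatives, Aldh1a2 was called only in the edgeR fit blocked by replicate number (adjusted p = 0.00998). Aldh1a3 was called only by limma-voom (adjusted p = 0.0272). Of 19 immediate early genes 3 were higher at an unadjusted p under 0.05 (3.49% of all genes, median -0.07). Jun, a stimulus-induced transcription factor gene with an antisense neighbour, had 45.9 and 162 CPM in Control and 82.4 to 179 CPM in Dnmt1cKO libraries, against 0.637, 17.4 and 40.6 CPM in Cre neg libraries (2.36 ± 0.73 for Control over Cre neg, adjusted p = 0.343). Fosb had 2.90 and 7.45 CPM in Control and 1 count over the Cre neg libraries, a ratio of 267 with a 95% counting interval of 46.7 to 10660 (adjusted p = 0.257).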

How the data were processed

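Per the labels' protocols, mRNA was selected by its polyA tail and cDNA was primed by random hexamers. The authors deposited 1 table of unscaled expected counts per gene symbol for the 14 libraries. The tools in the submitters' processing notes are RSEM 1.2.3, Bowtie 0.12.9 and bcl2fastq 2.17.1.14, with mm10 as the build, while annotation and strandedness of counting are not given in the sources used here. Libraries carried no molecular identifiers that the labels describe, so the intervals and floors reflect counting error alone. The floor of 3 counts equals 0.228 CPM in the deepest and 0.964 CPM in the shallowest of the 9 libraries compared.

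From these, expected counts were rounded to whole numbers, genes were kept by filterByExpr with a minimum count of 10, libraries were scaled by TMM, and the quasi-likelihood test of edgeR 4.0.16 (R 4.3.3) was fitted to all 14 libraries in 3 groups with no covariate. Groups were taken from the sample titles. The contrast was Control minus Cre neg, with Benjamini-Hochberg adjustment over 13011 genes, a threshold of 0.05 and 2 Control against 7 Cre neg libraries. CPM are TMM-scaled unless said otherwise, log2 CPM of lists has a prior count of 2, and errors of log2 fold changes are standard errors. The test was tried on simulated data. There the changed genes had higher levels in Cre neg libraries than the called genes, and Dnmt1cKO libraries held no change. That trial therefore does not bear on the calls at low levels. A log2 fold change of a gene with 0 to 3 counts in a group depends on the prior count of the fit, so a bound or a ratio with its exact 95% counting interval is printed in its place.

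The members and the 28 gene lists (532 distinct genes, 474 tested) were chosen with earlier results of these data known. The named genes were Shh and Dnmt1, up to 12 genes per direction with the smallest p (called genes first, then uncalled ones with both Control libraries beyond all Cre neg libraries and the higher group averaging 5 CPM or more), from each list the up to 4 members of lowest p, and measured genes within 1 Mb of Shh. This gave 131 genes, of which the text names 64 with values, apart from the defining urothelial markers, and 18 of the 64 have an annotated antisense exon overlap. Positions are from GENCODE M21 on GRCm38, the mm10 build, and near-identical transcripts were sought with BLAST+ 2.17.0 at 95% identity over at least 50% of the length.

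The alternatives were DESeq2 1.42.0, limma-voom (limma 3.58.1), RLE or upper-quartile factors for scaling, no filter, a stricter filter of 1 CPM in 7 libraries, the 9 libraries alone, the stroma marker mean as a covariate, the replicate number as a block, leaving out libraries under 4000000 counts, leaving out each library, and another prior count for list means. Summing the 2 Control libraries into 1 was added after the data had been seen.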

Additional observations from a re-analysis of the deposited data

Results flagged for a closer look

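Single Cre neg libraries lay far from the other 6 in 11 of the values examined (64 genes and 28 list means), by a gap that exceeded the 95% critical value of Dixon's test. Chance alone flags about 1 in 20 such groups if their values are normally spread. A gene with counts in only 1 Cre neg library is flagged by construction, so this rate does not hold for it. The 2 Control libraries are too few for this criterion.

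The mean of the Y-linked and X inactivation genes was 4.41 and 4.59 log2 CPM in Control, against -0.87 in Cre neg 2 and 4.06 to 4.77 in the other Cre neg libraries. Cre neg 2 thus differed from the other 8 in its level of Y-linked transcripts. Its shared genotype label does not record sex.

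Cre neg 4 held the lowest Upk1a, at 444 CPM against 608 to 757 CPM in the others. The same library had the highest mean of Wolffian duct markers, 2.43 log2 CPM against 1.18 to 1.71, and the only counts of Pax8 among Cre neg libraries, at 0.322 CPM. It also held Csf1r at 0.967 CPM against 0 to 0.127 CPM, Slc4a1 at 0.645 CPM against 0 and Wif1 at 0.0806 CPM against 0.

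Aldh1a3 stood at 14.2 and 74.5 CPM in Control, at 14.8 CPM in Cre neg 6 and at 0 to 0.403 CPM in the other Cre neg libraries. Among Cre neg libraries Calb1 was found in Cre neg 2 alone at 0.341 CPM, Fosb in Cre neg 1 alone at 0.0722 CPM, and Tuba3b reached 0.229 CPM in Cre neg 5 against 0 to 0.0722 CPM. Several of these values rest on single counts.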

How the results depend on the processing

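The number of genes called higher, 7 as reported, was 13 with DESeq2, 40 with limma-voom, 25 without a filter, 4 with the stroma marker mean as a covariate and 4 with the 2 Control libraries summed, a fit with 1 Control sample that is assumed to vary like the other groups. It was 6 in the fit of the 9 libraries alone and ranged from 1 (without Control 2) to 11 (without Cre neg 4) when 1 library was left out. Of the 7 genes, 0 were called by limma-voom and 7 by DESeq2. The number called lower, 0 as reported, was 8 with DESeq2 and 0 in every other setting, leaving out any 1 library included. The replicate numbers of the labels pair nothing by design, and Control and Cre neg libraries with the same number correlated at 0.10 and 0.01 over genes. With the replicate number as a block 19 genes were called higher, 3 of them among the 7, and Dnmt1 had a log2 fold change of 0.52 in place of -0.23 (adjusted p = 1). With the stroma covariate Dnmt1 had -1.77, and the log2 fold changes of Pecam1 (-1.99), Hbb-bs (-0.82), Gap43 (-0.79) and Aldh1a2 (-0.41) turned negative (adjusted p = 1 each). Of 1264 values of the 64 named genes under alternatives, 1186 kept their direction and side of the threshold, 5 reversed, 31 lost a call and 42, in 14 genes, gained one. The mean difference of the general epithelial markers was 0.18 log2 CPM without Control 2 and -0.92 without Control 1, in place of -0.37. With a prior count of 0.5 the mean difference of basal markers was 0.75 in place of 0.53 and that of Wolffian duct markers 3.45 in place of 2.58. The cause of these changes was not tested. Depth limits the low genes, since 3 counts are 0.523 CPM in Control 2, and with 2 Control libraries a small difference cannot be told from library spread.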

Other observations

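The remaining gene lists held no gene called by edgeR between Control and Cre neg urothelium. Ribosomal protein genes had a negative log2 fold change in 75 of 75 tested genes, with a median of -0.35, 0 at an unadjusted p under 0.05 and summed levels of 55900 and 74900 CPM in Control inside the Cre neg range of 52600 to 151000 CPM. Their mean difference was -0.24 log2 CPM. Heat shock genes had a median of -0.33 over 12 genes, and hypoxia and glycolysis genes a median of -0.07 over 14, with 0 genes at an unadjusted p under 0.05 in either list. Interferon response genes had a median of 0.08 over 18 genes. With an unadjusted p under 0.05, 1 was higher (3.49% of all genes) and 1 was lower (0.177%).

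Urogenital sinus and prostate bud markers had a median of -0.23 over 10 tested genes and hindgut epithelial markers -0.02 over 8, with 0 at an unadjusted p under 0.05. Cdx1, Cdx2, Muc2 and Fabp1, defining genes of hindgut epithelium, did not pass the filter on low counts. Of 10 skeletal muscle markers 3 were tested, with a median of 0.30 and 1 higher at an unadjusted p under 0.05 (3.49% of all genes). The 5 tested Y-linked and X inactivation genes had a median of 0.00.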
